A study of Mus musculus with 4 samples.

Results

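Cd74-rich spots lacking lipid-associated macrophage (LAM) transcripts are places in Visium sections of mouse liver whose Cd74 share of UMIs was among the highest of their section while no UMI of the LAM genes Trem2, Gpnmb and Mmp12 was counted in them. Among the spots with at least 500 UMIs (unique molecular identifiers, each standing for 1 captured RNA molecule), those without a UMI of these 3 genes were kept, and their Cd74 share of all UMIs was ranked within 5 equal bins of total UMIs in each section. The top 15% were called Cd74-rich and the bottom 50% Cd74-poor. Of 8246 spots in all, 5675 lacked the 3 LAM transcripts, 854 of these were Cd74-rich and 2831 were Cd74-poor. Cd74 and the 3 LAM genes chose the spots, so the spots were chosen by these measured values, which are given below as a description without a test.

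In Visium each spot of a slide captures polyadenylated RNA from several neighbouring cells of a frozen section, so a spot is a small region and not a cell. All 4 liver sections, embedded in OCT and snap-frozen, came from a pair of models on a diet labelled WD: MAFL, fed for 8 weeks, gave MAFL-1 as well as MAFL-2, and MASH, fed for 16 weeks, gave MASH-1 as well as MASH-2. Values listed without a name run from MAFL-1 over MAFL-2 and MASH-1 to MASH-2 (section order). The labels name no strain, age or allele, the model and the time on diet change together, and no untreated liver is among the sections used here. The labels do not say that sections came from separate animals. In comparisons of spot classes within sections, p-values measure how much the class difference varied between sections. In MASH against MAFL they measure the spread between sections. Either spread may be technical. By its title the study is about MIF, a cytokine, and about Cd74-positive LAMs and hepatocytes with Thrsp, a lipogenic gene. The comparison below addresses which other transcripts accompany Cd74 where LAM transcripts were not counted.

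CD74 is the invariant chain of MHC class II. It binds newly made class II alpha and beta chains in the endoplasmic reticulum, blocks their peptide groove and takes them to endolysosomes, where proteases trim it and the H2-DM chaperone exchanges the remaining fragment for antigen peptide. At the cell surface CD74 also binds MIF and signals together with CD44 and chemokine receptors. B cells, dendritic cells, monocytes and many macrophages make class II and CD74, and in the liver these cells gather around portal tracts, while resident Kupffer cells line the sinusoids. Transcription of the class II genes and of Cd74 depends on CIITA, a coactivator that docks on proteins bound to the X and Y boxes ahead of their starts.

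The promoters of the class II genes are shown because these genes rose with Cd74 as a group. RefSeq promoter windows of 250 bases before to 50 after the start on GRCm38.p6 were found for 6 of the 8 class II genes tested (H2-Aa, H2-Eb1, H2-DMa, H2-DMb1, H2-DMb2 and H2-Oa). The Y box letters TGATTGG, searched on both strands, were in 5 of these 6 windows and in 7.82% of all 32851 windows. The X box letters (AAC, any base, G, any base, TGA, any base, G) were in 3 of the 6 windows (H2-DMb1, H2-DMb2 and H2-Eb1) and in 0.828% of all windows. Stretches of 84 bases on chromosome 17 follow, 5′ to 3′ on the strand of the gene, with Y and X box matches in capitals. They lie at chr17:34305741-34305824 on the plus strand (H2-Eb1), chr17:34287855-34287938 on the minus strand (H2-Aa), chr17:34153063-34153146 on the plus strand (H2-DMb1), chr17:34145092-34145175 on the plus strand (H2-DMb2) and chr17:34092269-34092352 on the plus strand (H2-Oa).
H2-Eb1: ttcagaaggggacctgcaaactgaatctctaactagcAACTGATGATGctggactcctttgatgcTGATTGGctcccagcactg
H2-Aa: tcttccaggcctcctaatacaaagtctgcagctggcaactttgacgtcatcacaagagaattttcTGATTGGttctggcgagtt
H2-DMb1: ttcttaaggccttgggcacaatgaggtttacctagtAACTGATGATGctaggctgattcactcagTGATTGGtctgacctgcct
H2-DMb2: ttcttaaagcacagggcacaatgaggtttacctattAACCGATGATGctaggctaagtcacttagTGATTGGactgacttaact
H2-Oa: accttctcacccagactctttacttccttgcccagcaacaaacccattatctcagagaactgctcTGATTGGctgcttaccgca
The Y box began 61, 50, 63, 92 and 45 bases before the start of H2-Eb1, H2-Aa, H2-DMb1, H2-DMb2 and H2-Oa. In H2-DMb1 and H2-DMb2 the X box ended 18 bases before the Y box, and in H2-Eb1 17 bases before it. These are matches of letters, not measured binding sites. H2-Ab1 and Ciita are named without a sequence.

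Spots without LAM transcripts made up 96.1% of all in MAFL-1 (95% Wilson interval 95.1 to 96.8), 93.3% in MAFL-2 (interval 92.1 to 94.3), 55.98% in MASH-1 (interval 54.0 to 57.9) and 31.3% in MASH-2 (interval 29.2 to 33.5). The Cd74-rich class thus held 295, 265, 206 and 88 spots in section order, and the Cd74-poor class 976, 875, 690 and 290. The spots without LAM transcripts were shallower than the other spots of each section, with medians of 15399.5 against 16125.5 UMIs in MAFL-1, 19535 against 20918 in MAFL-2, 23248 against 28274 in MASH-1 and 15914 against 22783 in MASH-2, and 0 UMIs in a shallow spot does not show that a gene was absent. The Cd74-rich and Cd74-poor classes were close in depth by construction, with medians of 14954 against 15635.5 UMIs in MAFL-1, 19449 against 19818 in MAFL-2, 23289 against 23386 in MASH-1 and 15936.5 against 15703.5 in MASH-2. Intervals cover counting error only. Between the sections, 993 of 3243 spot barcodes recur in all 4 sections, as slides share a barcode layout, and replicate sections differed far beyond counting error, with a chi-square per degree of freedom of 67.7 for MAFL and 116 for MASH.

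Cd74 itself stood at 245, 235, 444 and 660 raw CPM in the Cd74-rich spots, in section order, where raw CPM is a count-per-million value taken over the UMI total of the spots summed. In the Cd74-poor spots it stood at 15.9, 23.1, 104 and 167. These levels rest on few molecules per spot: the median Cd74-rich spot held 3, 4, 10 and 10 Cd74 UMIs and the median Cd74-poor spot 0, 0, 2 and 3. In MAFL-1 the spots at the edge of the rich class held 2 to 3 Cd74 UMIs on either side of it, and in MAFL-2 2 to 4. The lowest Cd74 share admitted to the rich class ran from 132 to 225 raw CPM over the bins of MAFL-1, and the highest share left just outside it from 132 to 210. The matching ranges were 134 to 161 and 133 to 161 in MAFL-2, 309 to 389 and 307 to 389 in MASH-1, and 441 to 632 and 439 to 611 in MASH-2. Because the ranking was made within sections, Cd74-rich is a relative term: Cd74-poor spots of MASH-2 reached 254 to 296 raw CPM, above the lowest shares in the rich class of both MAFL sections. Of the Cd74-poor spots, 75.0% in MAFL-1, 58.3% in MAFL-2, 13.8% in MASH-1 and 6.90% in MASH-2 held no Cd74 UMI.

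In Cd74-rich spots the class II partners of Cd74, the chemokines Ccl19 and Ccl21a, and many of the monocyte, macrophage, portal fibroblast and extracellular matrix genes tested were higher than in Cd74-poor spots, while most of the plasma protein and mitochondrial genes tested were slightly lower. Haemoglobin also made up a larger share of UMIs in the Cd74-rich spots of all 4 sections, though no erythroid gene was called. Counts were summed per class and section and compared with edgeR's quasi-likelihood test with the section as a block, on 11200 genes. At an adjusted p of 0.05, 605 genes were called (5.4% of those tested), 298 of them higher (2.66%) and 307 lower (2.74%), with a median log2 fold change of -0.01 over all genes tested. The split depended on the scaling: with library totals alone 441 genes were higher and 47 lower. The number called was 328 without MAFL-1, 354 without MAFL-2 and 171 without MASH-1. Thinned to 5000 UMIs per spot, 39 genes were called. Levels below are CPM (counts-per-million values scaled by edgeR's TMM factors).

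The genes of at least 10 CPM that rose most were Ccl19, Vwf, S100a6, the class II genes H2-Eb1, H2-Aa, H2-Ab1 and H2-DMb1, Coro1a, Fcgr3, Crip1, Gpx3, Cd52, Cd44, Vim and Col1a1, with log2 fold changes between 0.75 and 1.36. Coro1a, coronin 1A, an actin regulator of leukocytes, stood at 12.5 CPM in Cd74-rich spots against 6.49 in Cd74-poor spots of MAFL-1, 14.8 against 6.21 in MAFL-2, 14.7 against 7.95 in MASH-1 and 25.7 against 11.5 in MASH-2. All sections shared the increase of 1.04 ± 0.13 (SE, edgeR adjusted p = 2.95e-10). Cd52, a surface peptide of lymphocytes and other leukocytes, stood at 22.3 CPM against 14.7 in MAFL-1, 27.1 against 13.8 in MAFL-2, 43.5 against 28.5 in MASH-1 and 97.4 against 38.5 in MASH-2, and rose by 0.84 ± 0.09 (SE, edgeR adjusted p = 5.38e-10). Crip1, a LIM-domain protein, rose by 0.86 ± 0.07, Gpx3, the secreted glutathione peroxidase, by 0.86 ± 0.09, Vim, vimentin of mesenchymal cells and leukocytes, by 0.79 ± 0.10, and Col1a1, a chain of collagen I, by 0.75 ± 0.15. The genes that fell most fell by less. They included Nrep, Wdr46, Slc35d2, Ftsj3, Nub1, Znrf2, Bet1, Pcdh1, Csrp3, Nmrk1, Adra1b, Dpp4, Vdac3 and Slc25a17, at log2 fold changes between -0.41 and -0.23.

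All 8 class II genes tested rose in Cd74-rich spots, against 2.66% of all genes, with a median log2 fold change of 0.95. H2-Ab1, the beta chain of the class II molecule I-A, stood at 106 CPM in Cd74-rich spots against 57.8 in Cd74-poor spots of MAFL-1, 91.8 against 49.5 in MAFL-2, 211 against 109 in MASH-1 and 288 against 151 in MASH-2. It was higher by nearly the same factor in every section, between 1.82 and 1.93, although its level in the Cd74-poor spots of both MASH sections was at or above that in the Cd74-rich spots of both MAFL sections. The fitted log2 fold change was 0.90 ± 0.04 (SE, 4 sections, edgeR adjusted p = 1.13e-37). H2-Aa, the alpha chain of I-A, stood at 61.5 CPM against 31.5 in MAFL-1, 59.9 against 26.5 in MAFL-2, 126 against 73.0 in MASH-1 and 217 against 118 in MASH-2. All 4 sections moved the same way, by 0.90 ± 0.05 on the log2 scale (SE, edgeR adjusted p = 1.59e-27). H2-Eb1, the beta chain of I-E, stood at 63.2 CPM against 28.0 in MAFL-1, 45.1 against 19.8 in MAFL-2, 126 against 64.1 in MASH-1 and 198 against 92.2 in MASH-2. Its log2 fold change of 1.07 ± 0.05 (SE, edgeR adjusted p = 1.94e-34) was again shared by all sections, and the calls of these 3 chains held in each alternative that gave them an adjusted p. DESeq2 with its own filter gave none for H2-Aa and H2-Eb1, and the ranking by H2-Ab1 leaves H2-Ab1 out.

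The chaperones that load class II with peptide followed at lower counts. H2-DMb1, a beta chain of H2-DM, rose by 0.83 ± 0.13 on the log2 scale (SE, edgeR adjusted p = 6.02e-07), from 5.69 to 12.5 CPM in MAFL-1, 6.51 to 9.69 in MAFL-2, 9.38 to 14.9 in MASH-1 and 17.1 to 36.2 in MASH-2. H2-DMa, the alpha chain of H2-DM, rose by 0.63 ± 0.14 (SE, edgeR adjusted p = 1.10e-03) and was higher in all 4 sections. H2-DMb2, another H2-DM beta chain and a close paralog of H2-DMb1 with which reads could be confused, rose by 1.003 ± 0.32 (SE, edgeR adjusted p = 0.0482). H2-Oa, the alpha chain of H2-DO, which restrains H2-DM and is made chiefly by B cells, was counted with 9, 7, 7 and 4 UMIs in the Cd74-rich spots, in section order. It rose by 1.63 ± 0.43 (SE, edgeR adjusted p = 7.62e-03), from 0.535 to 1.97 CPM in MAFL-1, 0.418 to 1.39 in MAFL-2, 0.313 to 1.47 in MASH-1 and 1.399 to 2.33 in MASH-2. Ciita, the class II coactivator, rose by 1.05 ± 0.33 (SE, edgeR adjusted p = 0.0366) on 7, 9, 13 and 9 UMIs. H2-Ob and H2-Eb2 were too sparse to be tested. Without MAFL-1, MAFL-2 or MASH-1 in turn, 5 of the class II genes were called, and 6 without MASH-2.

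**Figure D1:**
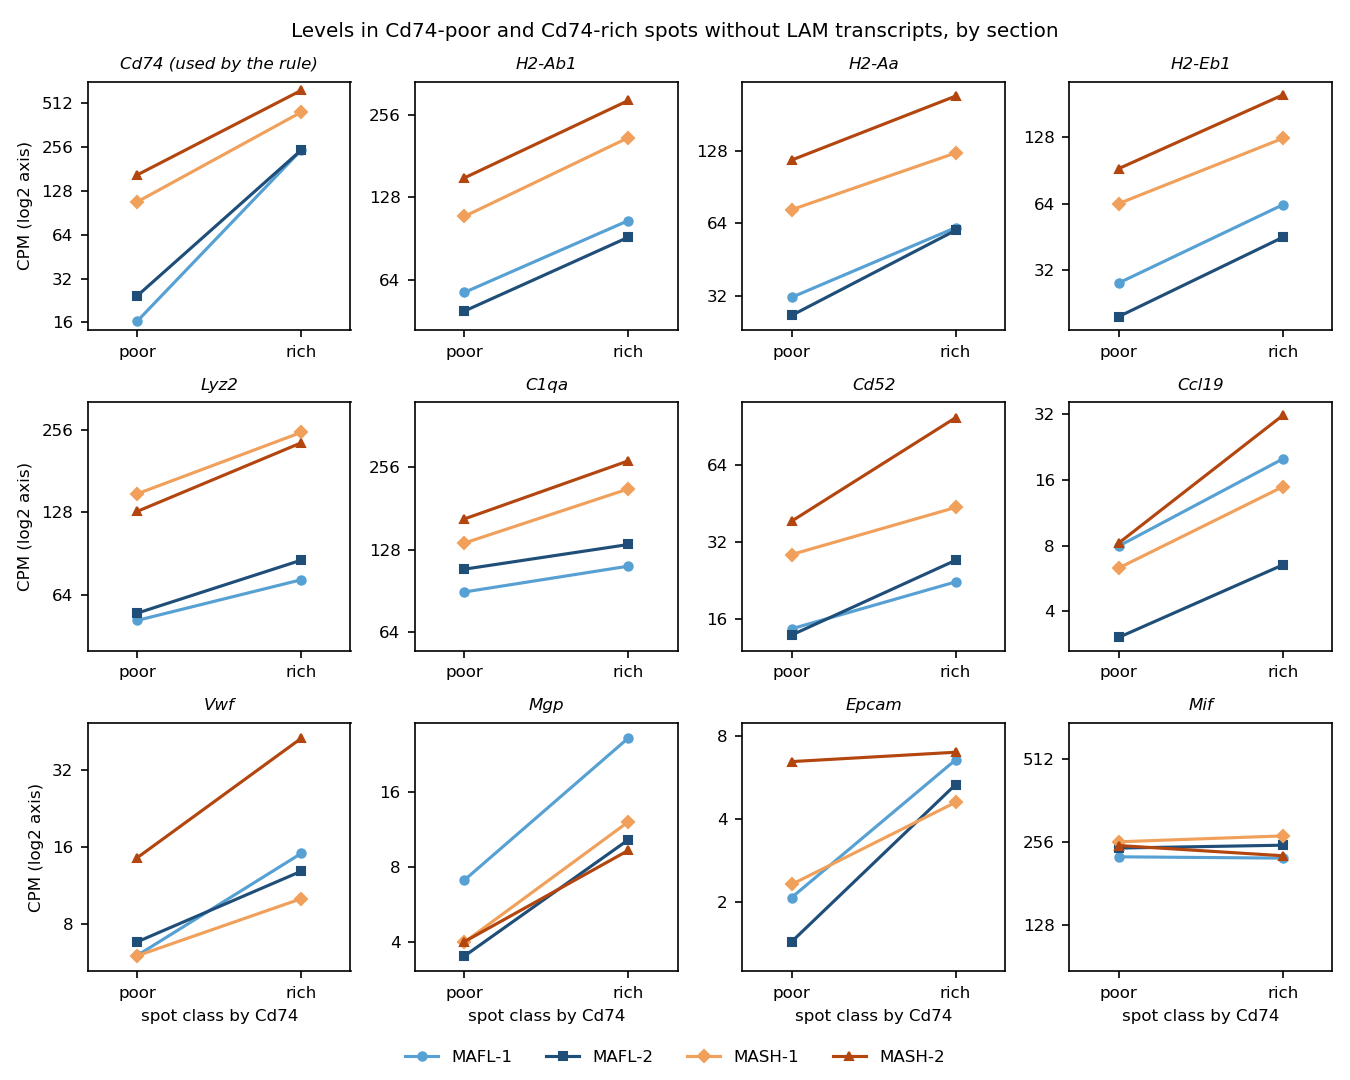
Levels of 12 genes in Cd74-poor and Cd74-rich spots (TMM-scaled CPM, log2 axes whose ranges differ between panels), 1 line per section and no error bars. H2-Ab1, H2-Aa, H2-Eb1, Lyz2, C1qa, Cd52, Ccl19, Vwf, Mgp and Epcam are higher in Cd74-rich spots of all 4 sections, whereas the Mif lines are nearly flat; Cd74 chose the spots.

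The class II level was highest at the top of the Cd74 ranking in every section. When the spots without LAM transcripts were divided into 10 equal parts by Cd74 share, the summed level of the class II list was 129 raw CPM in the lowest of them in MAFL-1, 175 in the ninth and 296 in the highest. In MAFL-2 it was 104, 125 and 255, in MASH-1 205, 430 and 535, and in MASH-2 351, 625 and 897. In every section the step from the ninth part to the last was larger than any other step between neighbouring parts. The portal fibroblast list stood at 101, 52.8, 73.7 and 94.7 raw CPM in the last part, in section order, against 56.7, 28.8, 37.9 and 69.96 in the ninth. The bile duct list stood at 53.2, 43.7, 41.8 and 49.1 against 38.03, 22.9, 22.1 and 45.7. Both were highest in the last part of each section, the duct list in MASH-2 by little. The Kupffer cell list ran from 572 to 601 between the first and the last part of MAFL-1, from 603 to 696 in MAFL-2, from 558 to 832 in MASH-1 and from 580 to 931 in MASH-2. After each spot was thinned to 5000 UMIs, 37.1% of Cd74-rich spots of MAFL-1 held an H2-Ab1 UMI (95% Wilson interval 31.7 to 42.9) against 24.4% of Cd74-poor ones (21.8 to 27.3). The shares were 36.0% against 22.1% in MAFL-2, 59.1% against 40.4% in MASH-1 and 73.8% against 57.2% in MASH-2, and unthinned they were 64.4% against 57.0%, 70.6% against 58.9%, 90.8% against 84.9% and 95.5% against 89.3%. Cd74-rich spots thus held H2-Ab1 more often than Cd74-poor spots in all 4 sections, yet many of them, in both MAFL sections the majority, showed none at the thinned depth. For Mif the thinned shares were 68.9% against 68.2%, 71.7% against 68.1%, 69.4% against 71.0% and 72.6% against 70.3% in section order.

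**Figure D2:**
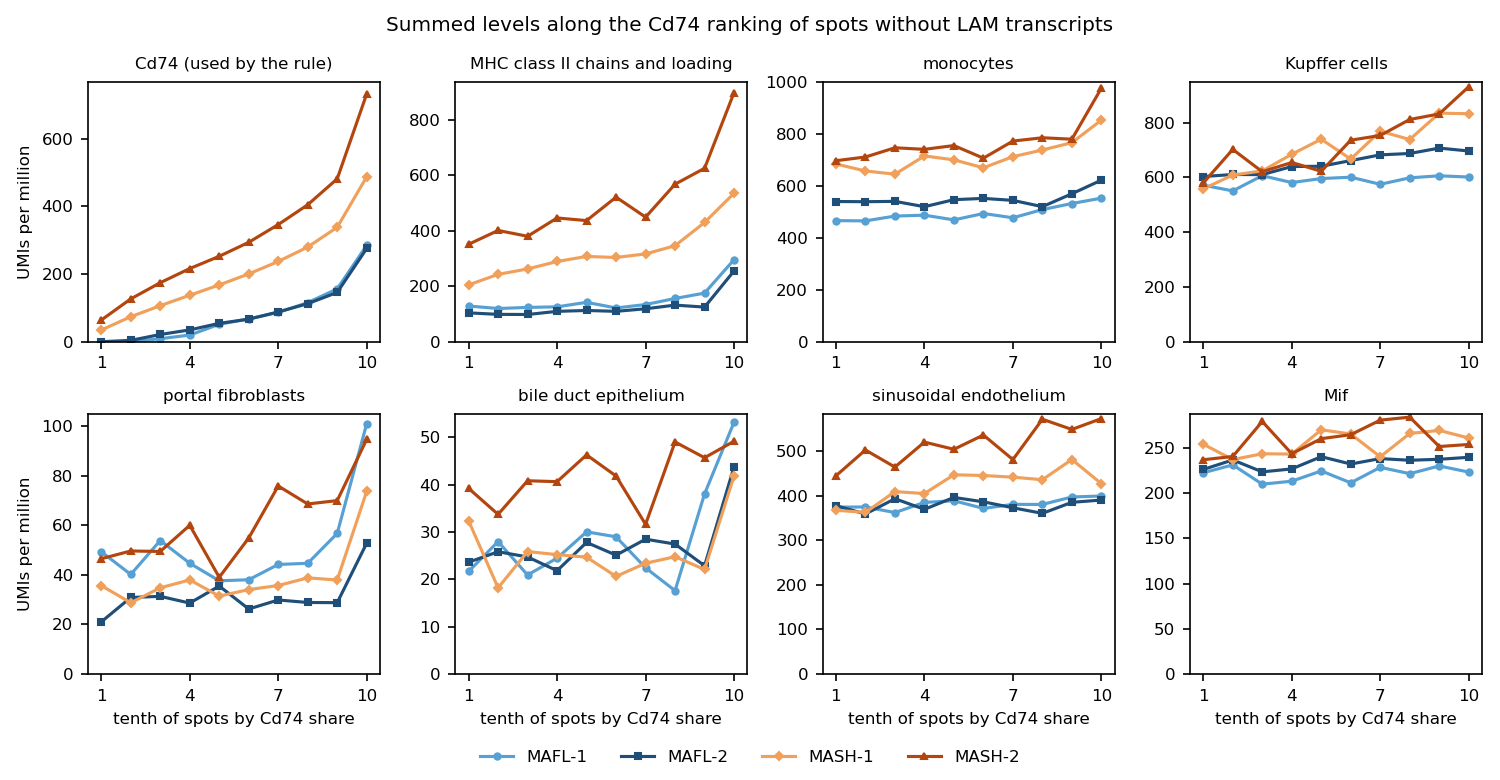
Summed raw CPM along the Cd74 ranking of spots without LAM transcripts, in 10 equal parts from lowest (1) to highest (10), 1 line per section (y axis raw CPM, labelled as UMIs per-million; no error bars), for Cd74, 6 gene lists and Mif. Class II, portal fibroblast and bile duct lists stand highest in the last part of each section, and Mif lies between 210.002 and 231 in MAFL-1, 224 and 240.4 in MAFL-2, 237 and 270.1 in MASH-1, and 237 and 284 in MASH-2.

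The neighbouring antigen pathways gave fewer calls. Of 12 MHC class I and peptide-loading genes tested, none was called, a count near the share of 5.4% called over all genes. Their median log2 fold change was 0.04. Of 9 endolysosomal processing genes, 4 rose and 1 fell. Ctss, cathepsin S, the protease that makes the last cut in the invariant chain, rose by 0.56 ± 0.06 (SE, edgeR adjusted p = 3.59e-13), from 26.5 to 37.4 CPM in MAFL-1, 40.5 to 53.0 in MAFL-2, 53.4 to 83.5 in MASH-1 and 73.5 to 128 in MASH-2. Cst3, cystatin C, an inhibitor of such proteases and abundant in dendritic cells, rose by 0.30 ± 0.03, Laptm5, a lysosomal membrane protein of leukocytes, by 0.53 ± 0.07, and Lgmn, asparagine endopeptidase, by 0.23 ± 0.05. Ctsl, cathepsin L, which hepatocytes express strongly, fell by 0.09 on the log2 scale.

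Of 10 monocyte genes tested, 7 rose, against 2.66% of all genes, and none fell, with a median log2 fold change of 0.84. Lyz2, lysozyme of monocytes and macrophages, stood at 72.9 CPM against 51.9 in MAFL-1, 85.9 against 55.1 in MAFL-2, 250 against 150 in MASH-1 and 229 against 129 in MASH-2. It rose in all sections, by 0.67 ± 0.04 (SE, edgeR adjusted p = 2.93e-26). S100a4, a calcium-binding protein of motile leukocytes and fibroblasts, rose by 1.79 ± 0.21 (SE, edgeR adjusted p = 3.21e-11), from 1.34 to 5.25 CPM in MAFL-1, 1.19 to 4.35 in MAFL-2, 2.63 to 6.70 in MASH-1 and 4.90 to 22.2 in MASH-2. Ccr2, the receptor by which monocytes leave the marrow and enter tissue, rose by 1.37 ± 0.29 (SE, edgeR adjusted p = 5.95e-04) on 14, 9, 15 and 15 UMIs in the Cd74-rich spots. S100a6 rose by 1.08 ± 0.12.

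Of 17 macrophage genes, 12 rose, against 2.66% of all genes, and none fell, with a median of 0.44. Fcgr3, a low-affinity IgG receptor, rose by 0.88 ± 0.12 and Tyrobp, the adaptor of many myeloid receptors, by 0.53 ± 0.05 (edgeR adjusted p = 1.47e-08 and 2.09e-13). C1qa, a chain of complement C1q made by tissue macrophages, stood at 111 CPM against 89.7 in MAFL-1, 134 against 109 in MAFL-2, 213 against 135 in MASH-1 and 269 against 165 in MASH-2. It rose by 0.48 ± 0.05 and C1qb, another C1q chain, by 0.44 ± 0.05 (edgeR adjusted p = 6.28e-06 and 3.35e-06), and both calls ended when library totals alone were used. Without MASH-1, 7 of the macrophage genes were called, and when all spots were ranked, with or without LAM transcripts, the calls of Lyz2, Tyrobp, C1qa, C1qb and Ctss ended at larger log2 fold changes, 1.09 for Lyz2 and 0.94 for Tyrobp.

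Of 13 Kupffer cell genes tested, 5 rose, against 2.66% of all genes, with a median of 0.26. Within MAFL none of the 13 was called, at a median of 0.12, against 1.35% of all genes higher there, and within MASH 6 were, at a median of 0.42, against 1.36%. The 5 were Vsig4, a complement receptor of Kupffer cells, which rose by 0.31 ± 0.07, Folr2, a folate receptor of resident macrophages, by 0.37 ± 0.09, Clec4f, a Kupffer cell lectin, by 0.26 ± 0.06 (not called with library totals alone), Hmox1, haem oxygenase, by 0.32 ± 0.09, and Marco, a scavenger receptor, by 0.27 ± 0.08. Clec4f stood at 92.8 CPM against 93.1 in MAFL-1, 135 against 117 in MAFL-2, 151 against 118 in MASH-1 and 185 against 120 in MASH-2, so it was level in MAFL-1 and higher in the other sections. None of these genes was called without MASH-1 and 1 without MAFL-2. Of 9 LAM genes that the rule did not use, 4 rose, against 2.66% of all genes, with a median of 0.36. They were Lgals3, galectin 3, by 0.36 ± 0.10, Lpl, lipoprotein lipase, by 0.27 ± 0.07, and the tetraspanins Cd9 by 0.33 ± 0.09 and Cd63 by 0.37 ± 0.10. Of these, 2 were called without MAFL-1, and 1 without MAFL-2 or without MASH-1.

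Lymphocyte genes were sparse. Over all genes 2.66% were higher. Of 15 B cell genes 4 could be tested, and 1 of them rose: Ighm, the mu heavy chain, by 0.80 ± 0.22 (SE, edgeR adjusted p = 0.0188). Its level was 3.28 CPM against 1.74 in MAFL-1, 3.76 against 3.88 in MAFL-2, 4.81 against 3.75 in MASH-1 and 28.0 against 8.04 in MASH-2, and the call ended without MASH-1 or without MASH-2. The whole list summed to 13.03, 13.8, 15.6 and 50.004 raw CPM in the Cd74-rich spots, in section order, and to 7.42, 13.5, 11.2 and 19.0 in the Cd74-poor ones. Between 2 and 5 of the 15 genes were at 0 in the Cd74-rich spots of a section. Of 20 T cell genes 6 could be tested, and Cd3d, a chain of the T cell receptor complex, rose by 1.75 ± 0.32 (SE, edgeR adjusted p = 3.68e-05), with 11, 14, 18 and 8 UMIs in the Cd74-rich spots. The T cell list summed to 15.5, 12.6, 28.8 and 36.4 raw CPM in Cd74-rich spots against 9.96, 9.05, 22.2 and 21.3 in Cd74-poor ones, with Cd8a at 0 in MAFL-1, MAFL-2 and MASH-2 and Cd4 at 0 in MAFL-2. Of the natural killer list Ccl5, a chemokine of cytotoxic lymphocytes, rose by 0.64 ± 0.12.

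Dendritic cell genes gave single calls in each list. Wdfy4, needed for cross-presentation by type 1 conventional dendritic cells, rose by 1.06 ± 0.24 (SE, edgeR adjusted p = 1.44e-03), from 2.01 to 3.94 CPM in MAFL-1, 1.97 to 5.54 in MAFL-2, 2.56 to 3.14 in MASH-1 and 1.92 to 6.999 in MASH-2. It was 1 of 6 tested genes of that list, and the call ended without MAFL-2. Cd200, of the mature dendritic cell list but also made by endothelium, rose by 1.66 ± 0.35 (SE, edgeR adjusted p = 5.95e-04), the only call among 5 tested genes. In the type 2 list Sirpa rose by 0.34 ± 0.10, 1 of 2 genes tested, and the other had a negative log2 fold change. In the plasmacytoid list Tcf4, which many other cells express, rose by 0.42 ± 0.12. There 2 of the 3 genes tested were negative, and the median was -0.01. Over all genes 2.66% were higher. The Sirpa call ended without MAFL-1 or without MASH-1, and the Tcf4 call without MAFL-1, MASH-1 or MASH-2.

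Plasma cell transcripts differed by section. Of 7 tested, Jchain, the joining chain of IgA and IgM, rose by 1.35 ± 0.27 (SE, edgeR adjusted p = 3.93e-03), and Ighg2c, a heavy chain of IgG, fell by 0.89 on the log2 scale (SE 0.18, edgeR adjusted p = 4.70e-04). Jchain stood at 7.66 CPM against 1.47 in MAFL-1, 2.37 against 2.57 in MAFL-2, 6.49 against 3.003 in MASH-1 and 19.2 against 5.07 in MASH-2. Ighg2b stood at 181 CPM in the Cd74-rich spots of MASH-2 against 13.99 in its Cd74-poor spots, and at 2.77 CPM or less in either class of the other sections. The list summed to 70.3, 29.98, 73.1 and 656 raw CPM in the Cd74-rich spots, in section order, against 23.6, 35.4, 60.1 and 127, so MASH-2 stood apart.

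The chemokines Ccl19 and Ccl21a, ligands of CCR7 that draw mature dendritic cells and T cells to portal stroma, lymphatics and lymphoid tissue, were among the largest increases. Ccl19 stood at 19.9 CPM against 7.96 in MAFL-1, 6.53 against 3.05 in MAFL-2, 14.9 against 6.32 in MASH-1 and 31.5 against 8.22 in MASH-2. It was higher in every section, by 1.36 ± 0.13 (SE, edgeR adjusted p = 2.12e-14). Ccl21a stood at 31.1 CPM against 7.76 in MAFL-1, 6.13 against 1.31 in MAFL-2, 3.35 against 2.002 in MASH-1 and 6.42 against 1.05 in MASH-2. It also rose in every section, by 1.88 ± 0.18 (SE, edgeR adjusted p = 4.25e-15). Both genes have near-identical copies in the mouse genome, and Ccl19 and Ccl21a each share a symbol with another feature of the files, so the split of reads between copies is uncertain. Of 13 chemokine genes tested, 5 rose, against 2.66% of all genes, with a median of 0.53. The others called were Cxcl9, a ligand of CXCR3, Ccl6 and Cxcl16.

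Stromal, vascular and duct genes accompanied Cd74 as well. Of 9 portal fibroblast genes 4 rose, with a median of 0.96. Over all genes tested 2.66% were higher, the share to set beside each count in this paragraph. Mgp, matrix Gla protein of portal fibroblasts and vessels, stood at 26.3 CPM against 7.09 in MAFL-1, 10.3 against 3.52 in MAFL-2, 12.1 against 4.004 in MASH-1 and 9.33 against 4.02 in MASH-2. It rose in all 4 sections, by 1.66 ± 0.14 (SE, edgeR adjusted p = 7.64e-18), with Dpt, dermatopontin, by 1.22 ± 0.17, Fbln1, fibulin 1, by 1.204 ± 0.19 and Mfap4, a microfibril protein, by 1.46 ± 0.29. Of 19 extracellular matrix genes 10 rose, among them the proteoglycans Bgn by 0.35 ± 0.04 and Dcn by 0.27 ± 0.04 and the collagens Col3a1 by 0.56 ± 0.09 and Col1a2 by 0.57 ± 0.10, and 6 were called without MAFL-1. Of 12 stellate cell genes 1 rose (Pdgfrb, a growth factor receptor, by 0.59 ± 0.18), with a median of 0.10, and 3 of 5 smooth muscle genes rose (Tagln, Myl9 and Acta2).

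Vwf, von Willebrand factor of larger vessels, rose by 1.13 ± 0.13 (SE, edgeR adjusted p = 1.97e-11), from 6.02 to 15.1 CPM in MAFL-1, 6.81 to 12.9 in MAFL-2, 6.01 to 10.0 in MASH-1 and 14.5 to 42.6 in MASH-2. It was 1 of 3 genes called among 12 of vessel endothelium, with Ly6c1 and Ly6a, against 2.66% of all genes higher. Of 13 sinusoidal endothelial genes none was called, at a median of 0.04, a count near the share of 5.4% called over all genes. Mmrn1, of lymphatic endothelium, rose by 2.21 ± 0.45 (SE, edgeR adjusted p = 3.66e-04) on 18, 4, 3 and 4 UMIs in the Cd74-rich spots. Of 8 bile duct genes 4 rose, against 2.66% of all genes, with a median of 0.82. Within MAFL 3 were called (median 0.76), against 1.35% of all genes higher. Within MASH none was (median 0.56), a count near the share of 1.36% higher over all genes. Epcam, an adhesion protein of duct cells, stood at 6.57 CPM against 2.07 in MAFL-1, 5.34 against 1.43 in MAFL-2, 4.60 against 2.31 in MASH-1 and 6.999 against 6.47 in MASH-2. It rose by 1.204 ± 0.22 (SE, edgeR adjusted p = 8.38e-05), least in MASH-2. The other duct genes called, Cldn7, Sox9 and Krt19, lost their calls without MAFL-1, without MAFL-2 or without MASH-1. When spots with a UMI of Epcam, Krt7, Krt19 or Sox9 were left out, 213 genes were called in all, among them 4 class II genes with H2-Ab1, H2-Aa and H2-Eb1.

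Blood content moved with the classes. Haemoglobin made up 0.629%, 0.338%, 0.526% and 0.392% of UMIs in the Cd74-rich spots, in section order, against 0.185%, 0.101%, 0.396% and 0.138% in the Cd74-poor ones. Of 5 erythroid genes none was called and the median was 1.18, and without MASH-1 4 were called. Of 3 neutrophil genes none was called, and that list of 12 genes summed to 16.6, 54.8, 6.09 and 26.5 raw CPM against 7.94, 11.9, 10.8 and 9.78. Pf4, of platelets, rose by 1.10 ± 0.24, a call that ended without MAFL-2. The part of blood in the other differences was not tested, and neither in blood genes nor in the others can more cells of a type be told apart from more RNA per cell.

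**Figure D3:**
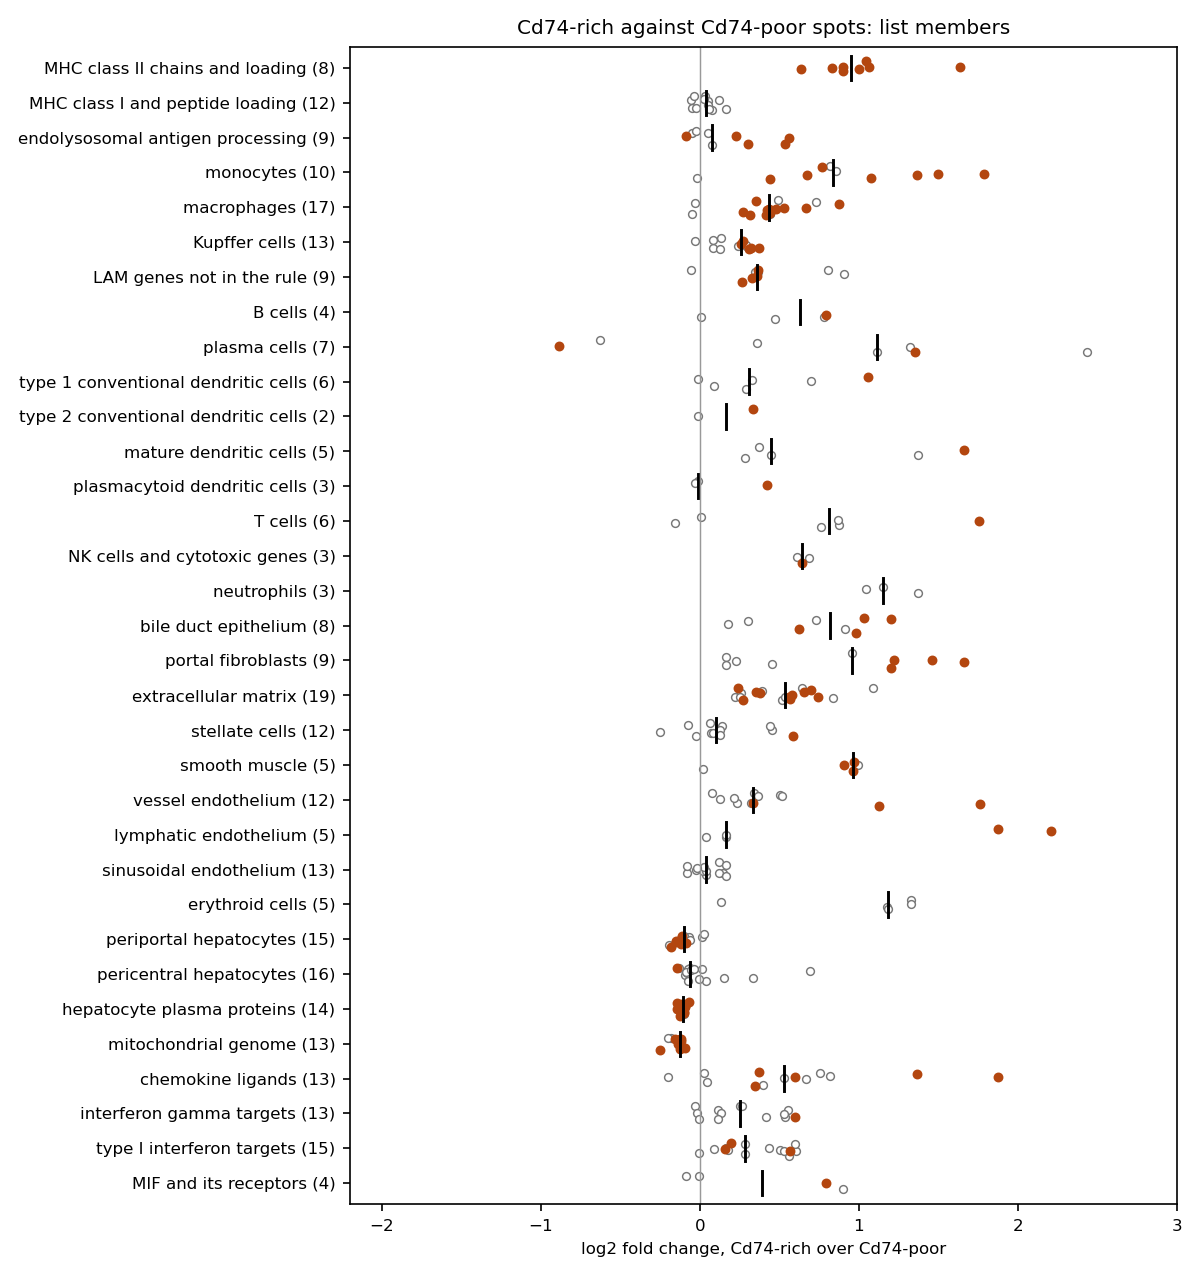
Log2 fold changes of the genes of 33 lists, Cd74-rich over Cd74-poor spots, with the number tested in brackets. Filled points passed an adjusted p of 0.05 in edgeR, open ones did not, and bars mark the list medians; all 8 class II genes are filled and to the right of 0, and class I and sinusoidal endothelial genes lie about 0.

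Of 4 genes tested of the list of MIF and its receptors, which leaves out Cd74, the coreceptor Cd44 rose and Mif, Ddt and Cxcr4 did not pass the test. Mif stood at 224 CPM against 227 in MAFL-1, 250 against 244 in MAFL-2, 270 against 257 in MASH-1 and 229 against 249 in MASH-2. The direction was split between sections, at a log2 fold change of -0.01 ± 0.03 (SE, edgeR adjusted p = 0.970). Cd44, the coreceptor that signals with CD74, rose by 0.79 ± 0.12 (SE, edgeR adjusted p = 6.36e-07), from 8.83 to 13.8 CPM in MAFL-1, 8.72 to 13.4 in MAFL-2, 9.38 to 16.9 in MASH-1 and 10.3 to 25.7 in MASH-2, and its call ended when spots were ranked by H2-Ab1 in place of Cd74 or thinned. Cxcr4, a chemokine receptor that can pair with CD74, had 6, 7, 7 and 4 UMIs in the Cd74-rich spots and did not pass (0.90 ± 0.41, edgeR adjusted p = 0.237). Ddt is a homolog of Mif, and Cxcr2 and Ackr3 were too sparse to be tested. Thrsp stood at 26.3 CPM against 29.6 in MAFL-1, 129 against 125 in MAFL-2, 369 against 359 in MASH-1 and 484 against 476 in MASH-2. It differed far more between sections than between classes (-0.01 ± 0.04, edgeR adjusted p = 0.996). Of 14 fatty acid synthesis genes none was called, a count near the share of 5.4% called over all genes.

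Hepatocyte transcripts were slightly lower. Of 14 genes of secreted plasma proteins 12 fell, against 2.74% of all genes, with a median log2 fold change of -0.11. Serpina3k, a serpin, fell by 0.15 on the log2 scale (SE 0.02, edgeR adjusted p = 1.92e-06), and Fgg, Fgb and Fga, the fibrinogen chains, fell by 0.14, 0.12 and 0.12. Of 13 mitochondrially encoded genes 11 fell, with a median of -0.13. Of 15 periportal hepatocyte genes 7 fell and none rose, with a median of -0.10, among them Cps1, the entry enzyme of the urea cycle, by 0.14, and of 16 pericentral genes 1 fell. Within MAFL none of the 15 periportal genes was called, at a median of -0.04, and within MASH 13 were lower, at a median of -0.26, against 0.893% and 2.64% of all genes. The pericentral list went the other way: 3 of its 16 genes were lower within MAFL, at a median of -0.11, and none within MASH, at a median of 0.01. Counts are shares of a total, so these small decreases depend on the scaling: with library totals alone 4 plasma protein, 7 mitochondrial and 2 periportal genes were lower, and without MASH-1 they were 2, 2 and 0. The share of spots in the most periportal tercile of their section, by a score of 6 periportal over 6 pericentral genes, was 32.9% of Cd74-rich against 34.1% of Cd74-poor spots in MAFL-1, 34.7% against 34.3% in MAFL-2, 34.0% against 35.5% in MASH-1 and 27.3% against 37.6% in MASH-2. The most pericentral tercile held 25.4% of Cd74-rich against 34.8% of Cd74-poor spots in MAFL-1 and 29.8% against 33.9% in MAFL-2. In MASH-1 it held 36.4% against 33.6% and in MASH-2 37.5% against 31.7%.

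Whether the company of Cd74 differed between the models was tested as an interaction of class and model. Of 11200 genes 36 were called (0.321%). The log2 effect in MASH minus that in MAFL was positive for 8 (0.0714%) and negative for 28 (0.25%). A negative difference can be a smaller increase or a larger decrease in MASH. The complement C1q chains and a pair of Kupffer cell genes had larger effects in MASH. C1qc, another C1q chain, stood at 51.2 CPM against 49.2 in MAFL-1, 74.2 against 62.9 in MAFL-2, 140 against 86.5 in MASH-1 and 180 against 112 in MASH-2. Its ratios were 1.04 and 1.18 in MAFL and 1.62 and 1.61 in MASH, and the log2 effects differed by 0.50 ± 0.09 (SE, edgeR adjusted p = 8.21e-05). Cd5l, a Kupffer cell glycoprotein, stood at 104 CPM against 98.1 in MAFL-1, 160 against 145 in MAFL-2, 215 against 161 in MASH-1 and 246 against 159 in MASH-2. Its effects differed by 0.33 ± 0.07 (edgeR adjusted p = 1.45e-03), those of C1qa by 0.34 ± 0.07, of C1qb by 0.32 ± 0.07, of the lysosomal protease Ctsc by 0.39 ± 0.09 and of Clec4f by 0.30. Of 17 macrophage genes these 3 C1q chains were called, and of 13 Kupffer cell genes Cd5l and Clec4f. With the main fit included, the call held in 20 of 26 fits for Cd5l and 14 for Clec4f.

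The genes called with a negative interaction included Alb, periportal genes, Gsn and Tmsb10, while the pericentral gene Cyp2e1 was called at 0.20. No gene of the portal fibroblast, stellate cell or extracellular matrix lists was called, a count near the share of 0.321% called over all genes. Alb, albumin, had ratios of Cd74-rich to Cd74-poor spots of 0.978 in MAFL-1, 0.982 in MAFL-2, 0.876 in MASH-1 and 0.842 in MASH-2, and its log2 effects differed by -0.23 (edgeR adjusted p = 6.76e-12). The periportal genes Cyp2f2, a cytochrome P450, Sds, serine dehydratase, Aldh1b1, a mitochondrial aldehyde dehydrogenase, Hsd17b13, a lipid droplet protein, and Gls2, liver glutaminase, were also called, 5 of 15, at -0.24, -0.35, -0.54, -0.22 and -0.27. Gsn, gelsolin, an actin-severing protein of mesenchymal cells, had ratios of 3.02, 2.42, 2.25 and 1.60 in section order, and Tmsb10, a thymosin, of 2.13, 2.34, 1.48 and 1.66. Both were higher in Cd74-rich spots of all sections and less so in MASH, by -0.53 ± 0.12 and -0.57 ± 0.10 (edgeR adjusted p = 3.31e-03 and 4.62e-06). S100a8, a neutrophil protein, stood at 6.79 CPM against 3.68 in MAFL-1, 23.7 against 4.90 in MAFL-2, 1.26 against 4.57 in MASH-1 and 5.25 against 3.50 in MASH-2. Its interaction of -2.72 lost its call without MAFL-2 and without MASH-1.

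For the class II chains no difference between the models passed the test. The difference of the log2 effects was 0.03 ± 0.08 for H2-Ab1, -0.28 ± 0.10 for H2-Aa and -0.19 ± 0.11 for H2-Eb1 (edgeR adjusted p = 0.985, 0.415 and 0.825). Within MAFL, 251 genes were called (2.24%), 151 higher (1.35%) and 100 lower (0.893%), led among genes of at least 10 CPM by Gsn at 1.46, S100a6 at 1.37, Ccl19 at 1.26, H2-Eb1 at 1.18 and Tmsb10 at 1.16, with Tmem203, Elovl3, Crk, Lmbrd1 and Acot4 at the other end. Within MASH 448 were called (4%), 152 higher (1.36%) and 296 lower (2.64%), led among genes of at least 10 CPM by Ccl19 at 1.47, Vwf at 1.14, Isg15 at 1.14, H2-Eb1 at 0.99 and Cd44 at 0.98, with Depdc7, Ltn1, Dtymk and Akap8 at the other end. Isg15, an interferon-induced ubiquitin-like protein, stood at 63.6 CPM against 16.6 in MASH-2 but at 9.42 against 8.26 in MASH-1, so its place rests on MASH-2. The interaction calls depended on single sections, with 14 genes called without MAFL-1, 23 without MAFL-2 and 129 without MASH-1, and DESeq2 called 2.

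**Figure D4:**
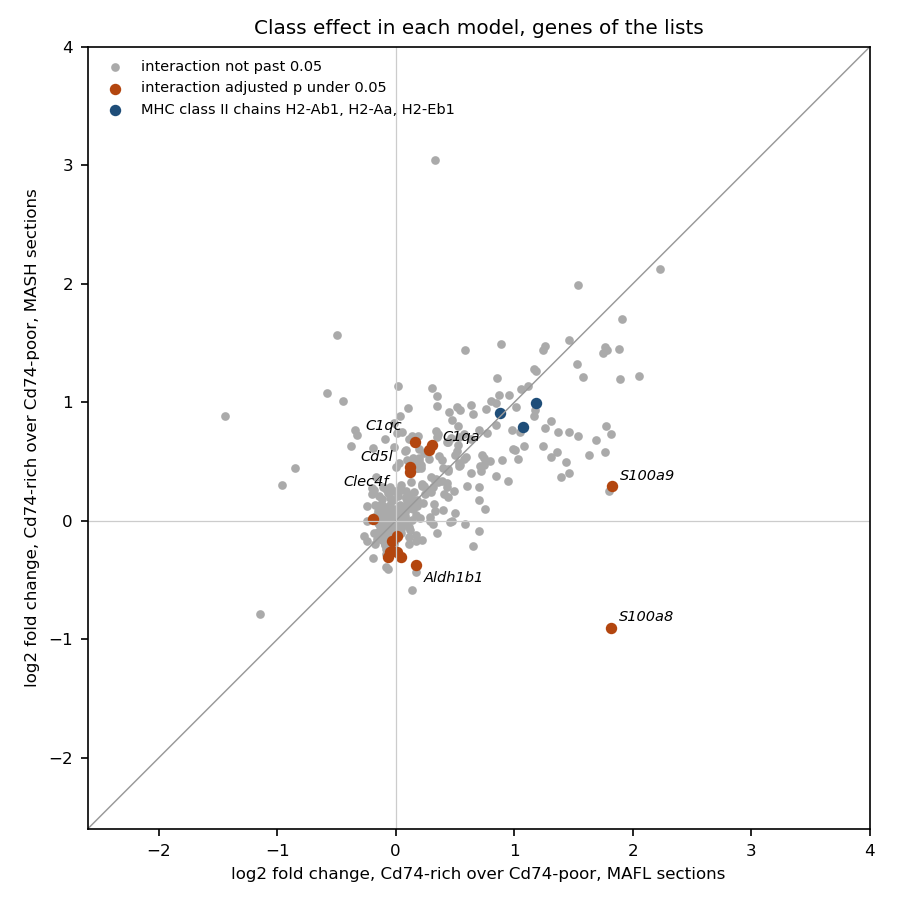
Log2 fold changes of Cd74-rich over Cd74-poor spots in the MAFL sections (x axis) and in the MASH sections (y axis), 1 point per gene of the lists. H2-Ab1, H2-Aa and H2-Eb1 lie near the diagonal, C1qc, C1qa, Cd5l and Clec4f above it, and S100a8, S100a9 and Aldh1b1 below it; blue points are the class II chains and orange points passed an interaction adjusted p of 0.05 in edgeR.

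Cd74-rich spots of the models were also compared with each other, 2 sections against 2, keeping in mind that the share that made a spot Cd74-rich was higher in MASH. Of 10559 genes 68 were called (0.644%), 43 higher (0.407%) and 25 lower (0.237%) in MASH. Of 7 class II genes 3 rose, H2-Eb1 by 1.55 ± 0.25, H2-Aa by 1.46 ± 0.25 and H2-Ab1 by 1.32 ± 0.21 (SE, edgeR adjusted p = 0.0261, 0.0277 and 0.0217). Their Cd74-rich levels in each section are given above. Of 17 macrophage genes 5 rose, among them Tyrobp at 1.35 ± 0.21 and Fcgr3 at 1.43 ± 0.23, and Lyz2 rose by 1.58 ± 0.20 (edgeR adjusted p = 5.44e-03). The class II calls ended without MASH-2 and with the replicate number as a block.

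Among called genes of at least 10 CPM the largest increases were those of Serpina7, thyroxine-binding globulin, at 3.23 ± 0.24, Cidec, a lipid droplet fusion protein, at 2.17 ± 0.34, Rad51b, Lgals1, galectin 1, at 1.79 ± 0.19 and Osbpl3. Serpina7 stood at 6.13 CPM in both MAFL sections and at 64.5 and 50.7 in MASH-1 and MASH-2. The largest decreases were those of Tff3, a trefoil peptide, at -2.19 ± 0.24, Selenbp2, a selenium-binding protein, at -1.995 ± 0.31, Cyp4a31, Carmil1 and Cdh1, E-cadherin of periportal hepatocytes. Tff3 stood at 42.0 and 54.6 CPM in MAFL-1 and MAFL-2 and at 10.5 and 11.1 in MASH-1 and MASH-2. Mif did not pass (0.06 ± 0.20, edgeR adjusted p = 0.932), nor did Thrsp (2.43 ± 0.94, edgeR adjusted p = 0.471), which stood at 26.3 CPM in MAFL-1 and 129 in MAFL-2 against 369 and 484 in MASH, nor Cd44 (0.57 ± 0.26, edgeR adjusted p = 0.406).

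Cd74-rich spots with LAM transcripts served as the contrast. They were spots with a UMI of Trem2, Gpnmb or Mmp12 whose Cd74 share was at or above the lowest share of the Cd74-rich class in the same section and bin, 22 in MAFL-2, 283 in MASH-1 and 410 in MASH-2, and the 17 of MAFL-1 were too few to be used. They were deeper than the Cd74-rich spots without LAM transcripts, with medians of 22902.5 against 19449 UMIs in MAFL-2, 29081 against 23289 in MASH-1 and 25692.5 against 15936.5 in MASH-2. Their Cd74 was 297 raw CPM against 235, 543 against 444 and 793 against 660, which the rule did not match. The part of depth and of Cd74 in the differences was not tested.

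Of 11073 genes 285 were called (2.57%), 143 higher with LAM transcripts (1.29%) and 142 lower (1.28%), with a median of -0.01. Of 9 LAM genes outside the rule 7 rose, with a median of 0.70, and the spots had been split by other genes of the same programme. Lgals3 stood at 23.6 CPM with LAM transcripts against 14.6 without in MAFL-2, 61.5 against 24.1 in MASH-1 and 122 against 52.5 in MASH-2. It rose by 1.23 ± 0.11 (SE, edgeR adjusted p = 7.20e-27), Cd63 by 1.01 ± 0.11 and Itgax, the integrin CD11c, by 1.64 ± 0.29. Of 17 macrophage genes 11 rose and Apoe fell by 0.11, with Tyrobp higher by 0.63 ± 0.08 and the lysosomal protein Cd68 by 0.93 ± 0.13, and 3 of 13 Kupffer cell genes rose. Of the 8 class II genes 3 rose, H2-Aa by 0.49 ± 0.07, H2-Ab1 by 0.35 ± 0.07 and H2-Eb1 by 0.33 ± 0.07 (edgeR adjusted p = 1.00e-09, 1.43e-05 and 4.84e-04). H2-Aa stood at 90.5 CPM with LAM transcripts against 59.9 without in MAFL-2, 182 against 126 in MASH-1 and 296 against 217 in MASH-2. The calls of H2-Ab1 and H2-Eb1 ended without MASH-1, when 120 genes were called in all.

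Zonation genes differed between the spots with and without LAM transcripts. Of 16 pericentral hepatocyte genes 14 fell, against 1.28% of all genes, with a median of -0.65. Glul, glutamine synthetase of the innermost hepatocytes, stood at 193 CPM with LAM transcripts against 266 without in MAFL-2, 230 against 336 in MASH-1 and 240 against 462 in MASH-2. It was lower in all 3 sections and fell by 0.71 on the log2 scale (SE 0.06, edgeR adjusted p = 1.39e-27), with Cyp2e1, an ethanol-metabolising cytochrome P450, by 0.54, Oat, ornithine aminotransferase, by 0.79, and Cyp2a5 by 0.70. Of 15 periportal genes 5 rose, against 1.29% of all genes, and none fell. Among those that rose were Hsd17b13 by 0.39 ± 0.05, Aldh1b1 by 0.53 ± 0.08, Apoa4 by 0.28 ± 0.04 and Sds by 0.24 ± 0.06. The median zone score, log2 of periportal over pericentral UMIs, was 0.43 with against -0.40 without LAM transcripts in MAFL-2, -0.74 against -2.10 in MASH-1 and -0.33 against -1.58 in MASH-2. The Cd74-rich spots without LAM transcripts thus scored more pericentral than those with them in each of these 3 sections, whereas in MAFL-1, with 17 spots with LAM transcripts, the medians were 0.80 with and 0.98 without. Cd74-poor spots, which also lack LAM transcripts, had medians of 0.56, -0.77, -1.96 and -1.36 in section order.

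Other groups moved in single steps, and over all genes 1.29% rose and 1.28% fell. Of 11 vessel genes 2 fell with LAM transcripts, Vwf by 0.72 and Rspo3, a Wnt agonist of central vein endothelium, by 0.97, and 4 of 19 extracellular matrix genes rose, among them Col1a1 by 0.79 ± 0.15 and Timp1 by 1.07 ± 0.28. Of 13 acute phase genes 5 rose, led by Lcn2, lipocalin 2, at 1.17 ± 0.10, and 11 of 13 mitochondrially encoded genes fell, with a median of -0.28. Of 13 lipid droplet genes 3 fell, Fitm1 by 0.54, Cidea by 0.74 and G0s2 by 0.22. Of 7 plasma cell genes 2 rose and 2 fell, and the fall of Ighg2b rests on MASH-2, where it stood at 76.1 CPM with against 181 without LAM transcripts. The other genes at the ends of the ranking among genes of at least 10 CPM were Ighg2c, Il1rn, the interleukin 1 receptor antagonist, Ly6d and Ear2, which rose by 1.51, 1.06, 1.05 and 1.02, and Nxpe2, Slc1a2, Tbx3 and Rmdn2, which fell by 1.04, 0.92, 0.88 and 0.86. Mif (0.02 ± 0.06, edgeR adjusted p = 0.989), Cd44 (0.24 ± 0.15, edgeR adjusted p = 0.651), Cxcr4 (0.42 ± 0.54, edgeR adjusted p = 0.902) and Thrsp (-0.15 ± 0.06, edgeR adjusted p = 0.290) did not pass.

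**Figure D5:**
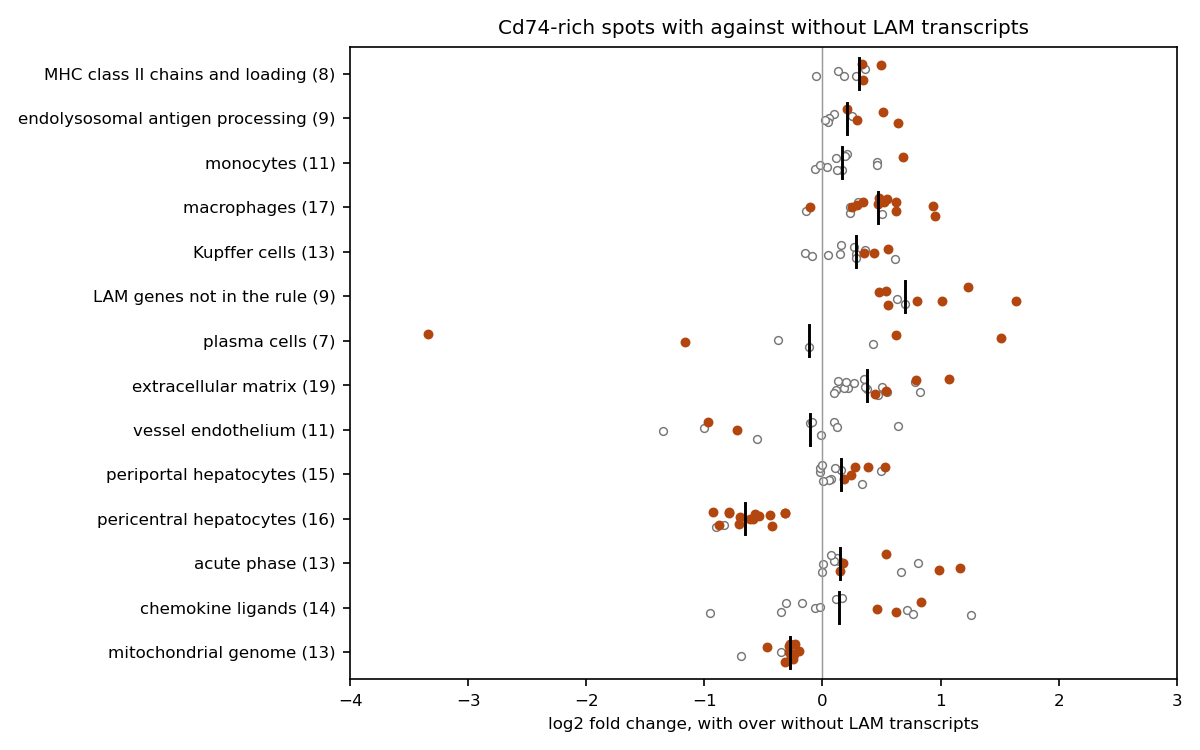
Log2 fold changes of the genes of 14 lists, Cd74-rich spots with over without LAM transcripts in MAFL-2, MASH-1 and MASH-2, with the number tested in brackets. Filled points passed an adjusted p of 0.05 in edgeR and bars mark list medians; the pericentral genes lie to the left of 0 and the LAM genes outside the rule to its right.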

How the data were processed

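The deposited matrices hold raw UMI counts of 31253 features in each spot. Per the file headers they come from Space Ranger (1.2.2), and the submitters' processing notes give mm10. All barcodes of the filtered matrices were taken, 91 features that share a symbol were kept apart, and spot positions were not used. Dropping 6 spots under 500 UMIs left 32249289 and 38126800 UMIs in the MAFL sections, 63808230 and 44581221 in the MASH sections.

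Sums per class and section were normalised by TMM, filtered by filterByExpr and tested by edgeR's quasi-likelihood method (4.0.16, robust, on R 4.3.3), with p-values adjusted by Benjamini and Hochberg at 0.05. Alternatives used DESeq2 (1.42.0) and limma (3.58.1). Other steps ran in Python 3.11.15 with numpy 2.4.6, scipy 1.17.1, pandas 2.3.3 and matplotlib 3.10.9. Equal Cd74 shares were ordered at random with a fixed seed. The spots, the 43 gene lists (517 symbols, 514 found; Ifi30 is not analysed here) and the tests were chosen with earlier results of these data known. The rule for naming took, among genes called with 1 direction in every section at a mean of 10 CPM or more, those with the 15 largest and 15 smallest log2 fold changes in the main comparison and 5 each elsewhere, leaving out predicted genes, Mup and haemoglobin genes, genes of ribosomes, mitochondria and sex chromosomes. It added up to 4 members of smallest p per list, all class II genes, Mif, Cd44, Cxcr4 and Thrsp. For the interaction and for MASH against MAFL, 1 direction meant instead that both MASH sections lay above, or both below, both MAFL sections. Other genes were named after their values were seen. Some genes that the rule selects are not reported here.

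In simulated counts with 200 altered genes the main comparison (11200 genes) recovered 84 of the 100 with a 2-fold and 98 of the 100 with a 4-fold change, and 7 of its 189 calls were false. The interaction recovered 46 and 88, with 4 of 138 calls false. The comparison of MASH with MAFL (10559 genes) recovered 27 and 85, with 13 of 125 false (10.4%), and that of spots with and without LAM transcripts (11073 genes) 78 and 96, with 11 of 185 false. The counts were drawn independently from the model fitted in each comparison. They held no changes smaller than 2-fold, as those of the plasma protein genes were, and did not test the dependence on scaling or depth.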

Additional observations from a re-analysis of the deposited data

Results flagged for a closer look

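The test of the interaction of class and model picked out the genes below, since their log2 effect of Cd74-rich over Cd74-poor spots differed between MASH and MAFL (edgeR adjusted p of 0.05). The differences, MASH minus MAFL, were 0.50 for C1qc, 0.39 for Ctsc, 0.34 for C1qa, 0.33 for Cd5l, 0.32 for C1qb, 0.30 for Clec4f and 0.20 for the pericentral gene Cyp2e1. They were -2.72 for S100a8, -1.53 for S100a9, -0.73 for Tstd1, -0.64 for Cops7a, -0.57 for Tmsb10, -0.54 for Aldh1b1, -0.53 for Gsn, -0.35 for Sds, -0.27 for Gls2, -0.24 for Cyp2f2, -0.23 for Alb, -0.22 for Hsd17b13, -0.14 for Hpx and -0.14 for Ahsg. With the main fit included, the call held in 22 of 26 fits for C1qc and 21 for Tmsb10. It held in 14 for Clec4f, 10 for Cops7a and S100a9, 9 for Ahsg, 7 for Hpx and 4 for Tstd1.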

How the results depend on the processing

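Short names stand for the alternatives. Thinning drew 5000 UMIs from each spot before ranking; zone ranking ranked within zone terciles; all spots dropped the LAM exclusion; stricter exclusion added Itgax and Atp6v0d2 to it; no lymphocyte spots and no duct spots left out spots with a UMI of 7 B and T cell or 4 duct genes; H2-Ab1 ranking replaced Cd74. DESeq2 without its own filter and the crossed pairing were chosen after the data were seen. For Cd74-rich against Cd74-poor spots 605 genes were called, 231 with DESeq2, 164 with DESeq2 without its own filter, 39 with thinning, 1843 with all spots, 213 with no duct spots and 323 with H2-Ab1 ranking, and 171 to 681 when 1 section was left out. For the interaction 36 genes were called, 2 with DESeq2, DESeq2 without its own filter or thinning, 10 with no filter, 66 with limma voom, 20 with bottom 30%, 10 bins or zone ranking, 12 with no bins, 84 with all spots, 18 with stricter exclusion, 8 with no duct spots and 56 with H2-Ab1 ranking, and 14 to 129 when 1 section was left out. Within MAFL 251 genes were called, 28 with DESeq2 or DESeq2 without its own filter, 125 with top 25%, 167 with bottom 30%, 21 with thinning, 142 with zone ranking, 159 with all spots and 39 with no duct spots, and 37 to 479 when 1 section was left out. Within MASH 448 genes were called, 112 with DESeq2, 78 with DESeq2 without its own filter, 208 with no filter, 250 with no bins, 23 with thinning, 2421 with all spots, 292 with stricter exclusion and 155 with no duct spots, and 158 to 370 when 1 section was left out. For MASH against MAFL 68 genes were called, 358 with no filter, 39 with top 25% or 10 bins, 35 with thinning, 124 with all spots and 106 with H2-Ab1 ranking, and 52 to 196 when 1 section was left out. For spots with against without LAM transcripts 285 genes were called, 78 with DESeq2, 62 with DESeq2 without its own filter and 69 with thinning, and 120 to 296 when 1 section was left out. The samples share only a replicate number: deviations of same-numbered sections correlated at -0.14 over 6451 genes in Cd74-rich and -0.15 over 6369 genes in Cd74-poor sums. With the replicate block 39 genes were called in the interaction and 24 in MASH against MAFL, and with the numbers crossed 363. DESeq2 gave no adjusted p for 10205 genes of the main comparison. Over all named genes the call and direction held in 2163 of 2692 repeats of the main comparison, 437 of 671 of the interaction, 287 of 380 within MAFL, 247 of 343 within MASH, 573 of 691 for MASH against MAFL and 597 of 755 for spots with against without LAM transcripts. Depth limits genes of few UMIs, such as Cxcr4, Ciita and H2-Oa. The causes were not tested, except that thinning and leaving out spots or sections reduce the counts.

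The following log2 values changed sign, with the value as reported first. For Cd74-rich against Cd74-poor spots, Mif of -0.0070 became 0.051 (library totals), 0.0038 (10 bins), 0.0099 (stricter exclusion), 0.019 (no lymphocyte spots) and 0.035 (no duct spots), and -0.025 to 0.021 over left-out sections. Thrsp of -0.0057 became 0.063 (library totals), 0.029 (top 10%), 0.025 (top 25%), 0.010 (no bins), 0.0074 (10 bins), 0.0017 (no lymphocyte spots) and 0.024 (no duct spots), and -0.015 to 0.022 over left-out sections. Sirpa of 0.34 became -0.22 (thinning). Ighg2c of -0.89 became 0.97 (all spots) and 0.25 (H2-Ab1 ranking). Cyp1a2 of -0.14 became 0.0043 (H2-Ab1 ranking). Ighg2b of 2.44 became -0.26 (H2-Ab1 ranking). For the interaction, Mif of -0.033 became 0.0086 (library totals), 0.0021 (no filter), 0.0019 (top 25%), 0.037 (thinning), 0.017 (stricter exclusion) and 0.013 (H2-Ab1 ranking), and -0.19 to 0.040 over left-out sections. Thrsp of 0.010 became -0.061 (top 10%), -0.023 (top 25%), -0.013 (10 bins), -0.016 (thinning), -0.081 (zone ranking), -0.13 (all spots) and -0.095 (H2-Ab1 ranking), and -0.027 to 0.15 over left-out sections. H2-Ab1 of 0.031 became -0.070 (top 10%) and -0.31 (thinning), and -0.0028 to 0.051 over left-out sections. Cyp2e1 of 0.20 became -0.054 (zone ranking) and -0.036 (all spots). H2-Aa of -0.28 became 0.17 (all spots). H2-Eb1 of -0.19 became 0.22 (all spots) and 0.13 (no duct spots). Cd44 of 0.34 became -0.080 (H2-Ab1 ranking). Within MAFL, Mif of 0.012 became -0.0025 (DESeq2), -0.0025 (DESeq2 without its own filter), -0.0017 (DESeq2 size factors), -0.046 (no filter), -0.011 (top 10%), -0.0040 (top 25%), -0.033 (thinning) and -0.030 (H2-Ab1 ranking), and -0.00071 to 0.015 over left-out sections. Thrsp of -0.0098 became 0.029 (library totals), 0.074 (top 10%), 0.040 (top 25%), 0.016 (10 bins), 0.044 (zone ranking) and 0.048 (H2-Ab1 ranking), and -0.16 to 0.020 over left-out sections. Crk of -0.32 became 0.24 (thinning) and 0.085 (H2-Ab1 ranking). Within MASH, Mif of -0.021 became 0.059 (library totals), 0.0041 (thinning), 0.022 (stricter exclusion), 0.014 (no lymphocyte spots) and 0.025 (no duct spots), and -0.18 to 0.043 over left-out sections. Thrsp of 0.00032 became -0.019 (no filter), -0.0023 (5000 UMIs or more), -0.031 (thinning), -0.036 (zone ranking), -0.17 (all spots), -0.0089 (stricter exclusion) and -0.046 (H2-Ab1 ranking), and -0.039 to 0.011 over left-out sections. Cxcr4 of 0.26 became -0.030 (bottom 30%), and -0.32 to 0.71 over left-out sections. Ltn1 of -0.70 became 0.19 (thinning). For MASH against MAFL, Mif of 0.061 ran from -0.099 to 0.19 over left-out sections. For spots with against without LAM transcripts, Vsig4 of 0.35 ran from -0.011 to 0.59 over left-out sections. Ighg2b of -1.17 became 3.08 (thinning), and -1.27 to 0.35 over left-out sections. Mif of 0.021 ran from -0.070 to 0.091 over left-out sections.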

Other observations

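Interferon-induced and dividing-cell genes were also read in the Cd74-rich spots. Over all genes 2.66% were higher there than in Cd74-poor spots. Of 13 interferon gamma targets 1 rose over Cd74-poor spots, Cxcl9 by 0.60 ± 0.13, and of 15 type I interferon targets 3 rose, Ifi27l2a by 0.57 ± 0.06, Ly6e by 0.16 ± 0.03 and Irf7 by 0.19 ± 0.06 (SE, edgeR adjusted p = 9.26e-04, 2.42e-12, 2.02e-03 and 0.0438). With the main fit included, the call held in 19 of 24 fits for Cxcl9, 23 of 24 for Ifi27l2a, 21 of 25 for Ly6e and 10 of 24 for Irf7. The type I list had a median of 0.04 within MAFL, with 2 genes higher, against 1.35% of all genes. Within MASH its median was 0.69, with 4 genes higher, against 1.36%. None of its genes passed the interaction test. Cxcl10, another interferon gamma target, was higher in the Cd74-rich spots of MASH than of MAFL, at 11.7 and 15.2 CPM against 1.97 and 2.57, by 2.48 ± 0.36 (edgeR adjusted p = 0.0128). Of 7 cell division genes, Hmgb2 rose by 0.62 ± 0.17 and Mki67 by 1.08 ± 0.34 over Cd74-poor spots. These calls held in 17 of 24 and 13 of 22 fits.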
